A study of Drosophila melanogaster with 7 samples.

Results

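Arc1 and Arc2 were measured in Drosophila melanogaster embryos that lacked zygotic function of lola, which encodes a family of BTB zinc-finger transcription factors needed for axon growth and guidance. The genes were taken by name: every feature of the array that the platform annotation assigns to Arc1 (older name CG12505) or Arc2 (older name CG13941) was used. This gave 1 cDNA clone each, LD41905 for Arc1 and SD11637 for Arc2, which are 2 of 7557 genes with at least 1 usable feature and 2 of 10227 features tested. Both genes were chosen with their values on these arrays known. Their own ratios are therefore given as a description, with no test.

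Each of 7 spotted cDNA arrays compared RNA of lola mutant embryos with RNA of control embryos. The mutants, in a w1118 background, carried lolaORE76 (lola-ORE76) on both homologues, recombined with sca-GAL4 or with UAS-tau-eGFP. This null allele has an early stop codon in the part common to all Lola isoforms. The controls, also in a w1118 background, carried sca-GAL4 and UAS-tau-eGFP without the lola allele. The sca-GAL4 driver switches the fluorescent reporter on in the developing nervous system. All embryos were 10 to 12 hours old after egg laying, a time of axon growth, and were sorted by hand for reporter fluorescence in the central nervous system. Each RNA sample came from whole embryos, about 300 to a sample, and the mutant and control embryos of a pair were collected in parallel. The mutants still held Lola protein supplied by the mother, and modifiers elsewhere on the chromosome that carries lola-ORE76 could not be separated from the allele. Mutant RNA was labelled with Cy5 on 3 arrays (1, 3 and 6) and with Cy3 on 4 arrays (2, 4, 5 and 7).

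Arc proteins resemble the Gag protein of Ty3/gypsy retrotransposons, from which the genes are thought to descend, and they assemble into capsids that can enclose RNA. In Drosophila, Arc1 protein binds Arc1 mRNA and travels with it in extracellular vesicles across the neuromuscular junction, where it takes part in the growth of the synapse. Arc1 is also known for responding to neuronal activity and for roles in energy balance. Arc2 is a close relative that lies beside Arc1 on the chromosome and is much less studied.

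All values below are log2 ratios of lola mutant over control, so a value of 1 means a doubling in the mutant. Nothing in the deposited table says which RNA was on top of the ratio. The sign was turned because 14 of 14 clones that could be matched to a table of the study had the opposite sign as deposited, which makes mutant over control the likely direction. The ratios say nothing of absolute level, and in whole embryos fewer cells that express a gene cannot be told apart from less RNA per cell.

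Arc1 had more RNA in the mutant on every array. Its log2 ratio was 0.95, 0.94, 1.01, 1.6, 1.03, 1.38 and 0.91 on arrays 1 to 7. The mean was 1.12 ± 0.27 (SD, n = 7 arrays), a 2.17-fold higher level in lola mutants than in controls. Arrays 4 and 6 stood above the rest at 3.04-fold and 2.61-fold, and the other 5 arrays lay close together between 1.88-fold and 2.04-fold. No array was below 0.91, and the mean was 1.04 without array 4 and 1.07 without array 6.

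Arc2 lay on both sides of 0. Its log2 ratio was 0.1, 0.05, 0.07, -0.13, -0.25, -0.41 and -0.21 on arrays 1 to 7. Its mean was -0.11 ± 0.19 (SD, n = 7 arrays), with 3 arrays above 0 and 4 below. The lowest value came from array 6, on which Arc1 had its second highest, and without that array the Arc2 mean was -0.06. Of all features, 63.7% had a smaller absolute mean than Arc2.

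Set against each other on the same array, Arc1 exceeded Arc2 by 0.85, 0.89, 0.94, 1.74, 1.28, 1.79 and 1.12 log2 units. The difference averaged 1.23 ± 0.39 (SD, n = 7 arrays), which is a 2.35-fold unequal change of the neighbouring relatives. The values of the genes did not overlap: the lowest Arc1 value was 0.91 and the highest Arc2 value was 0.1. Any feature with all 7 values below 0.91 would lie apart from Arc1 in the same way, so this is no trait of the pair. The clones are cDNAs of related genes, and how far each also binds the transcript of the other was not tested.

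**Figure D1:**
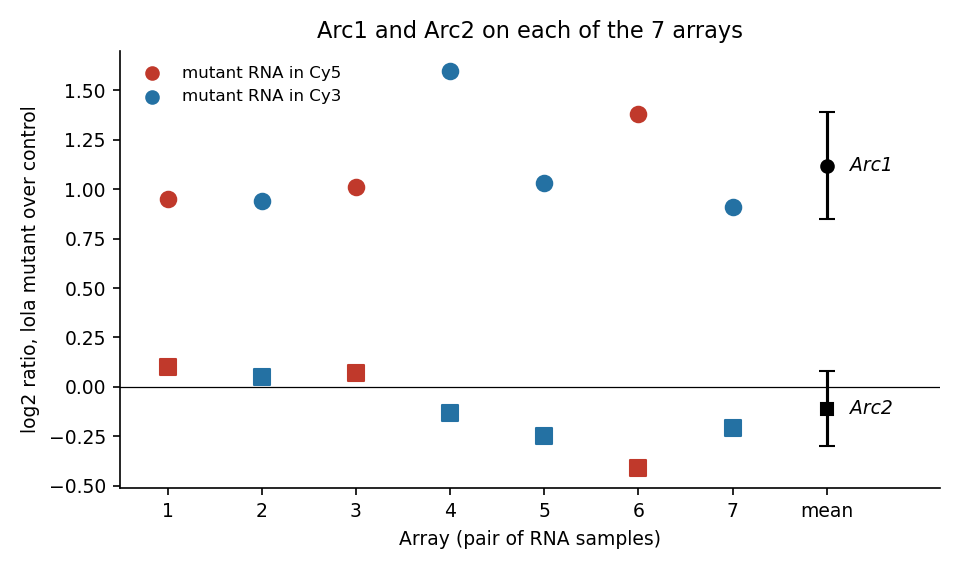
Log2 ratio of lola mutant over control (vertical axis) for Arc1 (circles) and Arc2 (squares) on arrays 1 to 7 (horizontal axis), coloured by the dye of the mutant RNA. Black symbols at the right are the mean and SD of 7 arrays: all 7 Arc1 points lie between 0.91 and 1.6 and all 7 Arc2 points between -0.41 and 0.1.

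The Arc1 mean was nearly the same in both dye orientations. Arc1 averaged 1.11 ± 0.24 on the 3 arrays with mutant RNA in Cy5 and 1.12 ± 0.33 on the 4 arrays with it in Cy3, a difference of -0.01 (Cy5 minus Cy3). The median absolute difference between orientations over all features was 0.17. With SDs of 0.24 and 0.33 on 3 and 4 arrays, a small dye effect on Arc1 could not be seen. Arc2 averaged -0.08 ± 0.29 in the Cy5 orientation and -0.14 ± 0.13 in the Cy3 orientation. Across the array, a dye term in limma passed an adjusted p of 0.05 for 1180 features (11.5%).

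Among all features, 6.11% passed an adjusted p of 0.05 in limma, 3.59% higher and 2.52% lower in the mutant. This share changed with single arrays: it was 2.41% without array 2, 2.71% without array 4 and 2.82% without array 5. Arc1 ranked near the top of those with more RNA in the mutant. Its mean was reached or exceeded by 24 of 10227 features, itself included, of which 6 were clones of the retrotransposon copia and 14 were features of single genes, from 13 genes. Of the 27 features with a mean of 1 or more, Arc1 had the smallest SD, 0.27, against 0.36 for the next and 0.8 for the most variable. This rank depends on the limit of 1. Just below it, CG31431 (0.93 ± 0.2), GstD3 (0.89 ± 0.26) and Sc2 (0.88 ± 0.25) had smaller SDs than Arc1. Among all features tested, however, the SD of Arc1 was at percentile 74.1, above the median SD of 0.19. All 7 arrays lay above 0 for 532 features (5.2%), but only 9 had a lowest array at least as high as that of Arc1. Of these 9, 5 were copia clones and 3 belonged to single genes: Arc1, the cytochrome P450 gene Cyp4e2 (1.69 ± 0.48) and CG32243 (1.88 ± 0.7).

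The genes next to Arc1 in this order were picked by their means, so that their means lie near its own follows from the choice. Just above it were Obp56a, an odorant-binding protein gene (1.18 ± 0.36), Snx27, a sorting nexin gene (1.15 ± 0.49), and Drsl5 of the drosomycin family of antifungal peptides (1.14 ± 0.57). Just below it were Drs, which encodes drosomycin itself (1.11 ± 0.44), CanB2, a regulatory subunit of calcineurin (0.99 ± 0.75), and CG13551 (0.98 ± 0.45). The means of these 6 genes lay from 0.98 to 1.18 around that of Arc1, and their SDs were larger than its 0.27. Drs ran from 0.3 on array 7 to 1.63 on array 2, and CanB2 from -0.19 on array 6 to 1.73 on array 2. Arc2, by contrast, sat at percentile 19.9 of all features by mean, with an SD at percentile 49.0.

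**Figure D2:**
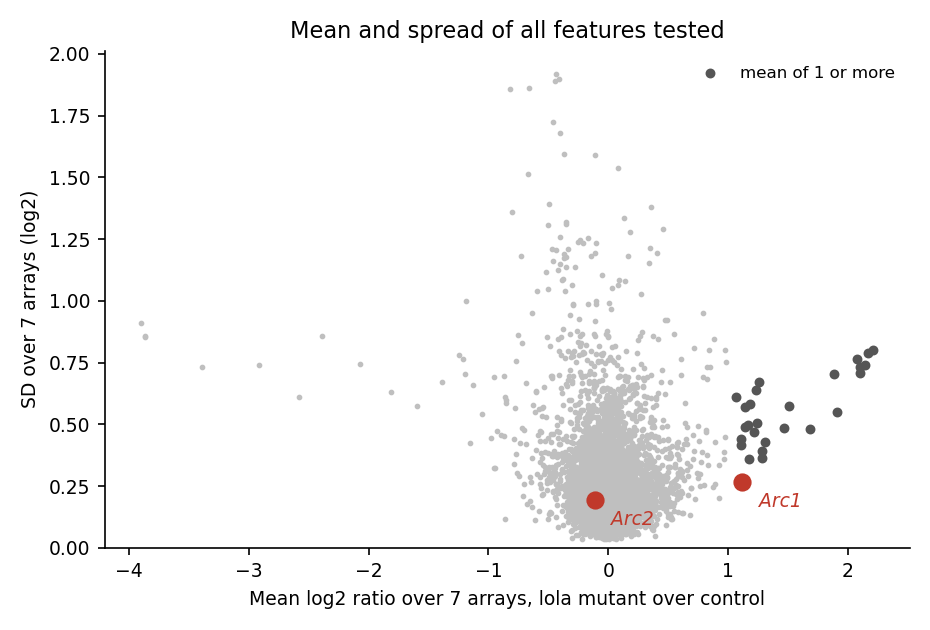
Each grey point is 1 of 10227 features, at its mean log2 ratio of lola mutant over control (horizontal axis) and its SD over 7 arrays (vertical axis, log2 units), with features of mean 1 or more in dark grey and Arc1 and Arc2 in red. Arc1 (mean 1.12, SD 0.27) is the lowest point among those with a mean of 1 or more, and Arc2 (mean -0.11, SD 0.19) lies inside the main cloud.

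The features nearest in value to Arc1 over the 7 arrays were sought among 8579 features of single genes. Nearness was the root mean square (RMS) difference of their values from those of Arc1, which reflects mean level as well as pattern. The nearest was gNacalpha, which encodes an alpha subunit of the nascent polypeptide-associated complex, at an RMS difference of 0.23. Its log2 ratios were 0.64, 1.04, 0.86, 1.42, 0.75, 1.47 and 0.57, high on arrays 4 and 6 as those of Arc1 were. Next came a clone of spir, the gene of an actin nucleation factor, at 0.28, with ratios of 0.37, 1.08, 0.62, 1.47, 0.94, 1.38 and 0.9. Like Arc1, it was highest on arrays 4 and 6. So was CG32243, which is not among the nearest 8 features, at 2.58 and 3.03. After gNacalpha and spir came CG31431 (0.3), CG6870 (0.3), Snx27 (0.33), the glutathione S-transferase gene GstD3 (0.33), Sc2 (0.36) and Drs (0.36). None of these 8 features lay on 2R, the chromosome arm of Arc1, which holds 1580 of the 7557 measured genes. With only 8 features, this says little about position. Pearson r with Arc1 over the 7 arrays was 0.88 for gNacalpha, 0.78 for spir, 0.72 for Snx27 and 0.66 for CG6870. It was lower for GstD3 (0.51), CG31431 (0.48), Drs (0.48) and Sc2 (0.39). Another spir clone, GH13327, averaged 1.24 ± 0.51 and was not among the 8. By RMS difference, the median feature was 1.18 away from Arc1, and Arc2 was 1.28 away. All of these values share the same 7 pairs of RNA.

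**Figure D3:**
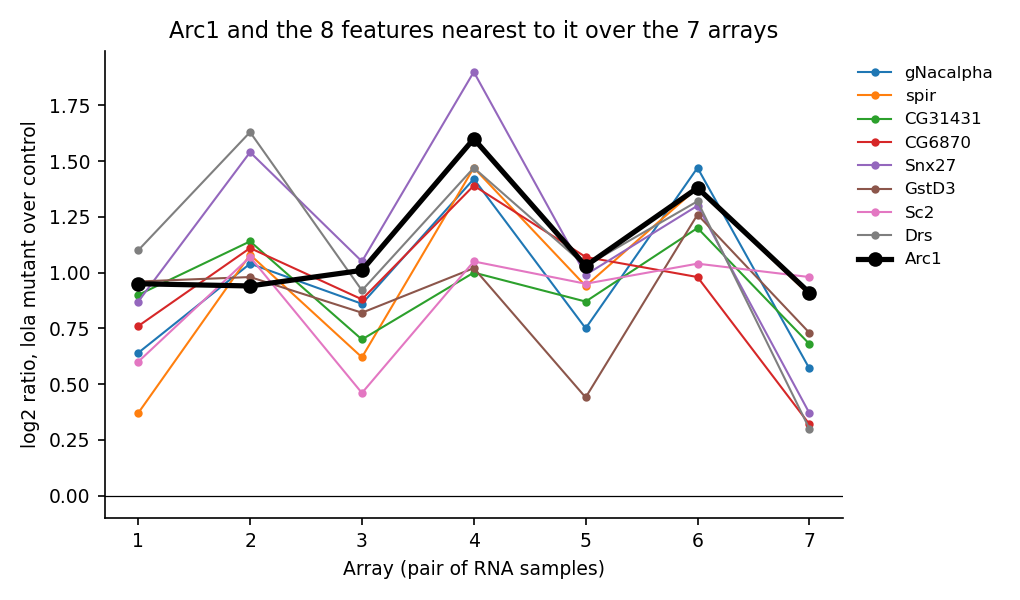
Log2 ratio of lola mutant over control (vertical axis) on arrays 1 to 7 (horizontal axis) for Arc1 (thick black line) and the 8 features nearest to it; lines only join the values of 1 feature. All 8 features were above 0 on all 7 arrays, which largely follows from their choice by nearness to Arc1, and Arc1 is highest on array 4 at 1.6.

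Arc1 and Arc2 lie on chromosome arm 2R, the arm that carries lola. In the RefSeq gene order, a single gene stands between them, CR10102, an annotated pseudogene with the synonym Arc3. The 10 nearest measured genes on each side were followed as a group of 20 neighbours with 21 features. In limma, 0 of the 20 genes passed an adjusted p of 0.05, against 6.03% of all genes, and 3 had an unadjusted p under 0.05. Their gene means ran from -0.31 to 0.17 with a median of -0.02, which was also the median of all genes.

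The nearest measured gene on the Arc1 side, CG8617, had a log2 ratio of 0.04 ± 0.11, and CG8613 beyond it -0.05 ± 0.1. On the Arc2 side, the nearest measured gene was Tfb1, a subunit gene of the general transcription factor TFIIH, at 0.17 ± 0.11. It was above 0 on all 7 arrays and had the smallest adjusted p among the neighbours (limma, adjusted p = 0.105). The neighbour receptor gene Dh44-R1, for a diuretic hormone, was at -0.01 ± 0.18. Both clones of phyl, an adaptor gene in sense organ and photoreceptor development, were at 0.15 ± 0.13.

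Farther out, the Polycomb-related gene Asx was at -0.03 ± 0.28 and the ion channel gene Ih at -0.02 ± 0.33. SmydA-1 had the lowest mean, -0.31 ± 0.31, with -0.95 on array 6. The cuticle protein gene Cpr51A averaged -0.11 ± 1.59, between -3.0 on array 6 and 1.65 on array 3. The other neighbours, Hsc70-5, CG8531, beta4GalNAcTA, CG8547, tej, Shrm, CG10104, Sin1, L, Cpsf160 and CG30197, had means between -0.18 and 0.11. No neighbour feature approached the Arc1 mean of 1.12. Only 27 of 10227 features on the array had a mean of 1 or more, and Arc1 was chosen with its value known, so this is no trait of the neighbours.

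**Figure D4:**
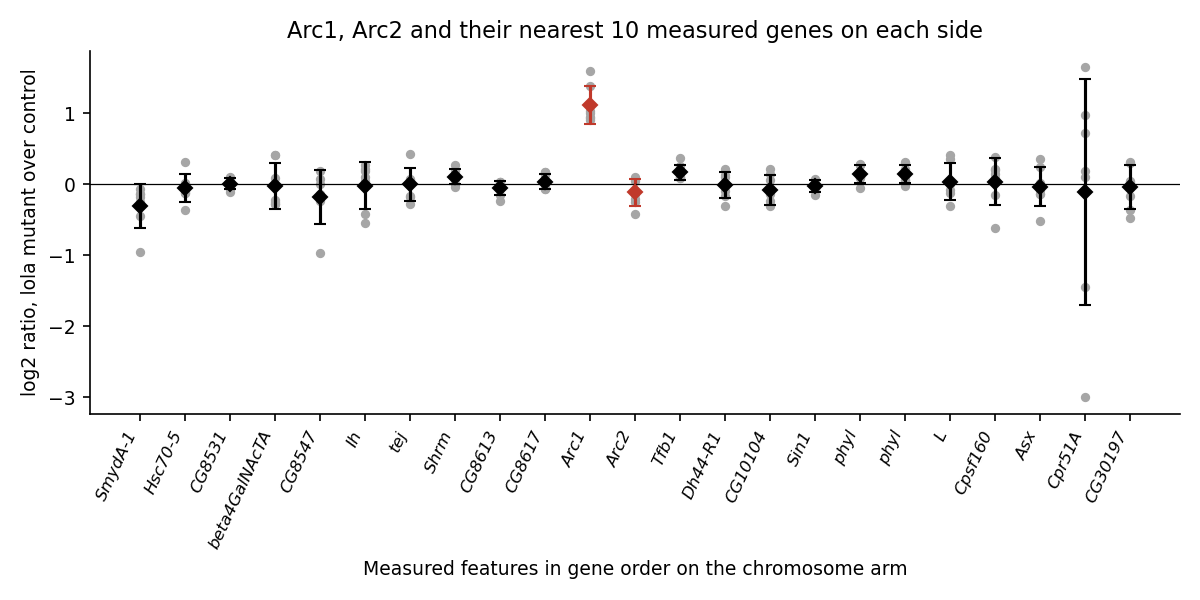
Log2 ratio of lola mutant over control (vertical axis) for Arc1, Arc2 (red) and their 20 nearest measured genes (black) in gene order (horizontal axis). Grey points are single arrays and diamonds with bars are the mean and SD of 7 arrays; Arc1 stands at 1.12 while the neighbours' means lie between -0.31 and 0.17.

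The count of called neighbours changed with the weighting of arrays. Tfb1 passed when arrays were weighted by quality, and Tfb1 (higher in the mutant) and beta4GalNAcTA (lower) passed on the 4 arrays with mutant RNA in Cy3 alone. Under those settings 21.0% and 26.2% of all genes passed, so 1 and 2 of 20 neighbours were below the share over all genes. Within 20 measured genes on each side, 1 of 40 passed (2.5%), O-fut1, which adds fucose to Notch (0.43 ± 0.29, limma adjusted p = 0.0316). A further clone, RE53130, had a mean of 0.25 ± 0.1 (limma adjusted p = 0.0241). Its annotation could mean either L or PRAS40, both near the Arc genes, so it was not counted as a neighbour.

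On arm 2R as a whole, with Arc1 and Arc2 left out, 98 of 1578 genes passed (6.21%), 70 higher and 28 lower in the mutant. The shares were 7.27% on 2L, 6.03% on 3L, 5.39% on 3R and 4.79% on X, and on the small arm 4, 7 of 50 genes passed. Between lola and Arc1, 25 of 281 measured genes passed (8.9%), 15 of them higher in the mutant. The lola clones themselves did not check the genotype, since a stop codon need not remove the transcript: GM09276 was at 0.65 ± 0.35 and GH08307 at 0.34 ± 0.15 (limma adjusted p = 0.00944 and 0.0136), while LD28033 was at 0.1 ± 0.22 and LD17006 at 0.01 ± 0.16 (limma adjusted p = 0.545 and 0.967).

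Genes kept from retroelements and elements of the Ty3/gypsy class took no common direction. Gagr and Iris, a Gag-derived and an envelope-derived gene that the fly genome has kept from retroelements, were at 0.03 ± 0.23 and 0.04 ± 0.34 (limma adjusted p = 0.911 and 0.881). Both were below 0 on the 3 arrays with mutant RNA in Cy5 and above 0 on the 4 with it in Cy3. Among clones that the study assigned to elements, the Ty3/gypsy class was represented by 16 clones of 9 elements. Of these elements, 5 were above 0 and 4 below, with clone means between -3.9 and 1.11. The opus element averaged 1.06 ± 0.61, close to the Arc1 mean, while Dm297 (the element named by that number) averaged -3.11 ± 0.72 and blood -2.23 ± 0.78. The study chose these clones on these same arrays, so the counts are no independent sample of elements.

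Copia, which belongs to the Ty1/copia class and not to the class of the Arc genes, averaged 2.14 ± 0.75 over its 6 clones. Its array values were 1.78, 2.66, 1.82, 3.32, 1.91, 2.48 and 0.98. It was highest on array 4 and lowest on array 7, as Arc1 was. The match went no further: on array 2, copia was at 2.66 and Arc1 at 0.94. The Arc1 value on array 7, 0.91, lay close to those on arrays 1, 2, 3 and 5, which ran from 0.94 to 1.03.

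Genes of the processes in which Arc1 takes part were read from lists. The lists were chosen with earlier results of these data known, so their shares are a description and no independent evidence. Over all genes, 6.03% passed in limma (3.49% higher and 2.54% lower in the mutant), with a median log2 ratio of -0.02. Of 33 listed genes of neuromuscular synapse growth and retrograde signalling, 19 were measured. Of these, 2 rose and 1 fell (15.8%), with a list median of 0.07. Scrib, a cell polarity scaffold gene, rose by 0.29 ± 0.19 on clone SD05339 and CASK, a synaptic scaffold kinase gene, by 0.29 ± 0.14 on clone RH26066 (limma adjusted p = 0.0435 and 0.0221). Of the 3 scrib clones, 2 passed, and LD43989 was at 0.18 ± 0.2. The other CASK clone, RE09582, was at 0.15 ± 0.21 and did not pass. Dap160, an endocytic scaffold gene of the presynaptic terminal, was at -0.36 ± 0.17 (limma adjusted p = 0.0143). The calls changed with single arrays: 0 genes of the list passed without array 2 or without array 4, and 1 without array 3 or without array 5. The share over all genes fell as well, to 2.14% without array 2, 2.47% without array 4, 4.1% without array 3 and 2.55% without array 5. The glutamate receptor subunit genes GluRIIA and GluRIIB, through which the muscle receives the motor signal, were at 0.0 ± 0.1 and 0.09 ± 0.12 and did not pass.

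Genes of vesicle release and of the ESCRT complexes, which shape the vesicles that carry cargo such as Arc1 out of cells, showed no call. Of 17 measured genes of 27, 0 passed in limma, 1 had an unadjusted p under 0.05, and the list median was -0.02. That gene was wls, whose product carries Wnt proteins in vesicles, at 0.27 ± 0.19 (limma adjusted p = 0.0568). Without array 1, 1 gene of this list passed. Of 11 listed genes of the neuronal activity response, 4 were measured (kay, Jra, puc and slo), and 0 passed in limma, with 0 at an unadjusted p under 0.05.

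Among RNA-binding regulators of synaptic translation, 15 of 22 genes were measured, 1 rose and 2 fell (20.0%), and the list median was 0.03. Syp, which binds synaptic mRNAs, rose by 0.77 ± 0.35 (limma adjusted p = 0.00444). Its arrays ran 0.28, 0.81, 0.45, 1.2, 0.74, 1.21 and 0.71, highest on arrays 4 and 6 as in Arc1. This was not particular to Syp and Arc1, since O-fut1 (0.68 and 0.87) and CG32243 (2.58 and 3.03) were also highest on these arrays. Cyp4e2 was highest on arrays 2 and 4 instead (2.28 and 2.29). Imp, a partner of Syp in the timing of neural stem cells that acts in the opposite sense, was at -0.38 ± 0.09 on clone RE72930_ReAmp (limma adjusted p = 0.00305). Of its 3 clones 2 passed, and SD07045 was at -0.14 ± 0.17. The translational repressor gene me31B was at -0.28 ± 0.1 on clone LD21247 (limma adjusted p = 0.0159). Both of these clones were below 0 on all 7 arrays. With each array left out in turn, 2 to 4 genes of the list passed.

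Of 28 listed genes of insulin, starvation and lipid store signalling, 15 were measured, 2 rose and 2 fell (26.7%), and the list median was -0.02. SNF4Agamma, a subunit gene of the energy sensor AMP-activated kinase, rose by 0.61 ± 0.23 on clone RE12750, and all 4 of its clones passed (limma adjusted p = 0.00264 for RE12750). The lipase gene Lip4 rose by 0.32 ± 0.13 (limma adjusted p = 0.0136). Lsd-1, which coats lipid droplets, was at -0.45 ± 0.31 and the growth kinase gene mTor at -0.33 ± 0.19 (limma adjusted p = 0.0314 and 0.0241). The fall of mTor was not borne out by the study's own quantitative RT-PCR, which had the opposite sign and was not significant. Without array 2, 4 or 5, 2 of the 15 genes passed, while the share over all genes was 2.14%, 2.47% and 2.55%.

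**Figure D5:**
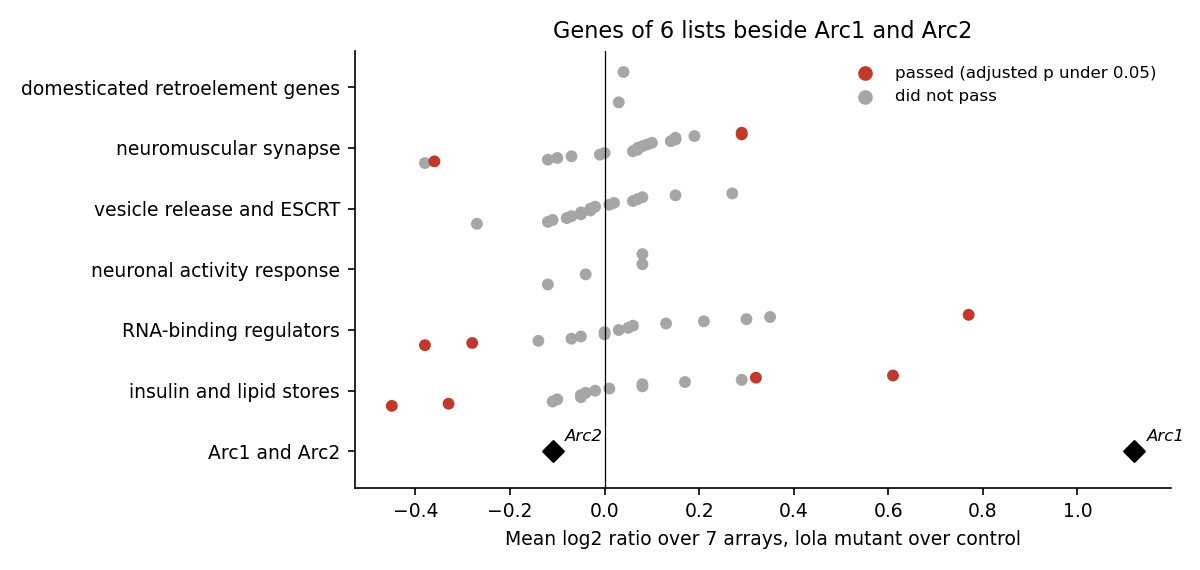
Mean log2 ratio of lola mutant over control over 7 arrays (horizontal axis) for each measured gene of 6 lists (rows; vertical offsets within a row have no meaning), with Arc1 and Arc2 as black diamonds. A gene with several clones is shown at its passing clone, or otherwise at any of its clones, with the largest absolute mean; the highest listed gene is Syp at 0.77, below Arc1 at 1.12.

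Marker genes of the tissues in a whole embryo were read beside Arc1 and Arc2, again against 6.03% of all genes. These lists too were chosen with earlier results of these data known. Only 4 of 14 neuronal markers were measured (nSyb, futsch, Gad1 and ple, but not elav), and 0 passed in limma, with 1 at an unadjusted p under 0.05. Of 6 neuroblast markers measured, 3 rose (ase, wor and pros) and 1 fell (sna), 66.7% in all with a median of 0.26. Of 8 haemocyte markers 3 rose (Pxn, PPO1 and PPO2, 37.5%), and of 7 glial markers 2 fell (alrm and Gs2, 28.6%), with medians of 0.17 and 0.02. Of 7 fat body and gut markers 3 fell (Lsd-1, Npc2a and lambdaTry, 42.9%), with a median of -0.1. Only 3 tracheal markers were measured, and 1 of them, salr, rose. Of 6 muscle and 9 epidermal markers, 0 passed in limma, with 0 and 2 at an unadjusted p under 0.05.

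The list means per array gave the neuroblast markers between 0.08 and 0.41, highest on array 4, on which Arc1 was also highest. On array 6 the muscle markers averaged -1.87, the epidermal markers -0.94 and the neuronal markers -0.6, each the lowest of 7 arrays. On that array Arc1 was at 1.38 and Arc2 at -0.41. The part of tissue composition in the Arc1 and Arc2 ratios was not tested.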

How the data were processed

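The authors read the spots in GenePix, left background uncorrected, and normalised by print-tip loess and scale in limma. They deposited log2 ratios, 1 column per array, for 10376 features with 0 missing values. Spot intensities were not used here, so dim clones could not be told from bright ones, and precision is limited by the number of arrays.

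All signs were turned to mutant over control. Of 70 features whose absolute log2 ratios averaged over 1, 62 had the same sign in both dye orientations, so the columns already ran 1 way. Left out were 149 control spots, and 55 clones assigned to elements or several sequences were not used for genes. RefSeq supplied symbols and gene order for 8454 features by gene ID and 133 by a unique name, and 11 kept the platform symbol. No coordinates or sequences are printed.

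The ratios were fitted with limma 3.58.1 in R 4.3.3 (lmFit and eBayes, two-sided, Benjamini-Hochberg over 10227 features, threshold 0.05), tested on simulated data first. A gene passed when at least 1 feature did and none passed the other way. In all, 625 features passed (6.11%), 367 higher and 258 lower. The labels call the 7 pairs independent biological replicates. Members and lists were chosen with earlier results of these data known. Named genes were the members, 10 neighbours a side, up to 4 passing genes a list, the 8 nearest features and the 3 above and below Arc1. Cyp4e2, CG32243, O-fut1, RE53130, the elements, the list genes that did not pass and the named markers were added after values were seen. Alternatives were each array left out, array weights, a dye term, each dye orientation alone, median centring, a minimum fold of 1.1, robust fitting, control spots kept and other neighbour windows.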

Additional observations from a re-analysis of the deposited data

Results flagged for a closer look

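In 4 of 55 sets of 7 arrays put to Dixon's test, 1 array lay apart from the rest, and in each it was the lowest and came from array 6. Chance gives about 1 in 20 sets. For the neighbour SmydA-1, array 6 stood at -0.95 and the next lowest at -0.44. For the neighbour CG8547, array 6 stood at -0.97 and the next lowest at -0.23. The mean of the neuronal markers was -0.6 on array 6 and -0.09 on the next lowest. The mean of the tracheal markers was -0.65 on array 6 and -0.12 on the next lowest. Neither Arc1 nor Arc2 had an array that lay apart in this way. Without array 6, the mean was 1.07 for Arc1 and -0.06 for Arc2.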

How the results depend on the processing

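A ratio was taken to have moved when it shifted by 1 SD over the arrays or more, and a count when it changed by over 1.5 times. By these limits 29 of 144 values under alternatives moved, 115 did not and 0 reversed, and those that moved were counts. Leaving out 1 of 7 arrays cannot shift a mean by 1 SD, so no ratio could be counted as moved in those fits. The wide limits let Arc2 shift to -0.06 and the features that passed to 872 (with a dye term) or 440 (without array 3) without being counted. With each array left out in turn, Arc1 ran from 1.04 to 1.15, Arc2 from -0.15 to -0.06 and their difference from 1.14 to 1.29. Over the same set, 246 to 775 features passed in limma (246 without array 2, 277 without array 4, 288 without array 5). The neighbours that passed were 0 to 0, the synapse genes 0 to 3, the vesicle genes 0 to 1, the RNA-binding genes 2 to 4 and the insulin and lipid genes 2 to 5. With array weights, 2057 features, 1 neighbour, 2 vesicle genes and 6 RNA-binding genes passed. On the 4 arrays with mutant RNA in Cy3 alone, 2501 features passed, with 2 neighbours, 1 domesticated retroelement gene, 5 synapse genes, 5 vesicle genes and 6 RNA-binding genes. On the 3 arrays with it in Cy5 alone, 0 features passed in limma, and so 0 synapse, 0 RNA-binding and 0 insulin and lipid genes. With a minimum fold of 1.1, 184 features, 0 synapse genes and 1 insulin and lipid gene passed. Within 20 genes on each side, 1 neighbour passed. Fewer arrays or a stricter null account for some of these by construction, and the cause of the others was not tested. The fit on the 7 ratios was itself paired, since each array sets a mutant sample against the control of its pair, and it left no further replicate block to add.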
